A study of Mus musculus with 6 samples.

Results

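The genes described here are 42 genes of the cell division cycle, chosen by name: 19 that act in G1, at the entry into S phase or in DNA replication, and 23 that act from G2 through mitosis. They were taken by symbol from a table of 54532 genes, in which each of the 42 names occurs once. All 42 had enough reads to be tested, among 16313 tested genes. The study sequenced polyA RNA of intestinal epithelium from mice given the yeast Candida albicans by gavage and from mice given phosphate-buffered saline (PBS), once every 3 days over 2 weeks. There were 3 Candida albicans libraries and 3 PBS libraries, and both groups are labelled Apoe-/-, a genotype used as a model of atherosclerosis, so no group with a functional Apoe gene stands beside them. The labels give neither the age of the mice, nor the segment of intestine, nor whether each library is a separate mouse, and p-values therefore cover the spread among these 6 libraries only.

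Libraries held 21406930 to 24891735 counts, and the members lay between 22 counts (Cdc25c, Candida albicans replicate 1) and 3497 counts (Mki67, PBS replicate 2) in a library. Levels are given in CPM, read counts brought to a common library size with edgeR's TMM factors, and they are not divided by gene length unless said. All 11 pan-epithelial markers were tested, and their summed level was 20827 to 22828 CPM in Candida albicans libraries and 15070 to 22561 CPM in PBS libraries. Smooth muscle markers were present as well, at 206 to 1792 CPM in Candida albicans libraries and 524 to 7055 CPM in PBS libraries, so the libraries are not epithelium alone.

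Cell division in the gut epithelium is confined to the crypts, where stem cells and their transit-amplifying daughters cycle, while the cells of the villus have left the cycle. Cyclin D and cyclin E kinases inactivate the retinoblastoma proteins and free E2F factors, which switch on the genes for loading and firing replication origins. Later, cyclin A and cyclin B kinases, FOXM1 and the MuvB complex drive the mitotic genes, and the anaphase-promoting complex (APC/C) ends mitosis by destroying cyclins.

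The 2 phases differ in the sequence in front of their genes, which is shown here because the members are set apart by phase below. RefSeq promoters (GRCm38.p6, 250 bases before to 50 bases after the start) were at hand for 32 of the 42 members, 15 of the G1/S and replication genes with 16 promoters and 17 of the mitotic genes with 17 promoters. Those without one were Ccnd1, Ccne2, Mcm4, Gins2, Ccna2, Cdc25c, Foxm1, Aurkb, Tpx2 and Kif20a. Both strands were searched for 3 E2F-type motifs, the first being TTGGCGC, another being TTCGCGC and the last being TTCCCGC. They were also searched for the cell cycle homology region (CHR), an element of mitotic genes spelled TTTGAA or in its variant form TTCGAA, and for the NF-Y box, spelled CCAAT. The first E2F-type motif can overlap the second and also the NF-Y box, and overlapping matches were all counted. Examples follow, 5′ to 3′ on the gene's strand, with the matches in capitals. Mcm3 and Mcm7 (the first of its 2 promoters) are shown for replication genes, and Cdk1, Mki67 and Ube2c for mitotic genes. Not all of them are typical of their phase. Cdk1 and Mki67 also hold an E2F-type motif, and Mcm7 also holds a CHR variant, which few promoters of their phase do.
Mcm3, chr1:20820263-20820562, minus strand: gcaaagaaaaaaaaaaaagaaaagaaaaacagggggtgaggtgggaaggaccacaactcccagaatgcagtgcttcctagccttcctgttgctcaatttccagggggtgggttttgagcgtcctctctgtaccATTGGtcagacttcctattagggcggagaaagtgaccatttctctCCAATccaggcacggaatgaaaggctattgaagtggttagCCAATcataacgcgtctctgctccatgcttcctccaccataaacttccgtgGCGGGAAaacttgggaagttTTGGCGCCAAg
Mcm7, chr5:138171834-138172133, minus strand: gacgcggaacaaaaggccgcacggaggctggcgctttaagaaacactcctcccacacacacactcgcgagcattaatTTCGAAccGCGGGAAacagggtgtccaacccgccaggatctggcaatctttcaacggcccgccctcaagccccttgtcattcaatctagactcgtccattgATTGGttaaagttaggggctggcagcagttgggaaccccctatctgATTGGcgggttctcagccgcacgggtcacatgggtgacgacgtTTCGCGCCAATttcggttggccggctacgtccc
Cdk1, chr10:69352863-69353162, minus strand: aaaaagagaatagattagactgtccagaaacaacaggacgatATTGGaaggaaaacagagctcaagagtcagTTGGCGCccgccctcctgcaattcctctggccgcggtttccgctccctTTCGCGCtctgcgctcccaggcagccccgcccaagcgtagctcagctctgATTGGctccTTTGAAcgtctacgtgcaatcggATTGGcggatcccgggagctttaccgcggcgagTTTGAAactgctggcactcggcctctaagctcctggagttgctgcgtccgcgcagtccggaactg
Mki67, chr7:135716330-135716629, minus strand: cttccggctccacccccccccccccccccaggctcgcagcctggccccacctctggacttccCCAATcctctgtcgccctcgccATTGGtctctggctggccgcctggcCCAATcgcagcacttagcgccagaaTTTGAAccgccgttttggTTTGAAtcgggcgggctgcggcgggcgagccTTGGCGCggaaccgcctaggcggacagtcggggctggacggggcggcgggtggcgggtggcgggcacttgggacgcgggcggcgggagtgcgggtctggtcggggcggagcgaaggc
Ube2c, chr2:164769679-164769978, plus strand: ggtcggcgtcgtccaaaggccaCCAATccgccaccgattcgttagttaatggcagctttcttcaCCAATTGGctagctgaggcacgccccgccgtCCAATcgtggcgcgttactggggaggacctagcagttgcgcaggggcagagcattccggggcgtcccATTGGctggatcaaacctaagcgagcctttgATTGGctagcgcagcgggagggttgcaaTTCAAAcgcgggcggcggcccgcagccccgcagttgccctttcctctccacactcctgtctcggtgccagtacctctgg

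An E2F-type motif was found in 10 of 16 G1/S and replication promoters (62.5%), in 3 of 17 mitotic promoters (17.6%) and in 8.07% of all 32851 promoters in the table. The CHR was found in 14 of 17 mitotic promoters (82.4%), in 3 of 16 G1/S and replication promoters (18.8%) and in 19.2% of all promoters. All 14 of those mitotic promoters also held an NF-Y box, a pairing found in 7.52% of all promoters. In the Mcm3 promoter shown above the E2F-type matches begin 20, 40 and 43 bases after the start site. In the Ube2c promoter a CHR begins 29 bases before it (position -29), downstream of 6 NF-Y boxes. Mean GC content was 61.8% in the G1/S and replication promoters and 59% in the mitotic ones, against 53.8% in all promoters, and was not matched. A match to these letters is a description and shows no binding.

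**Figure D1:**
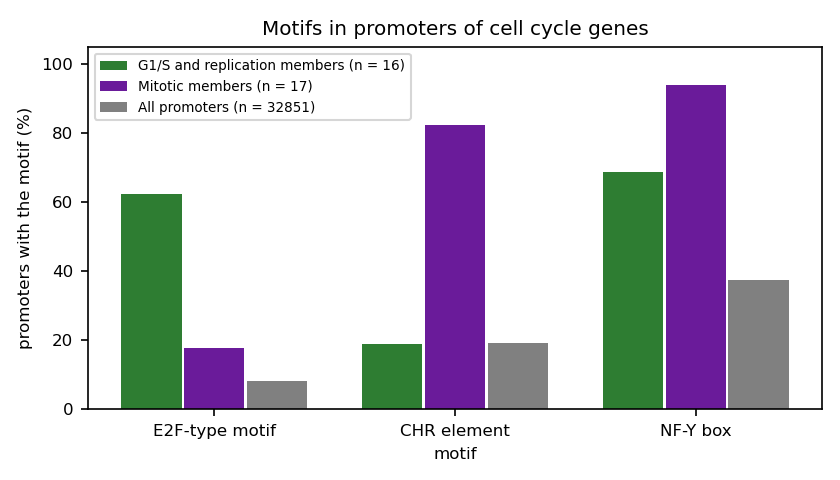
Share of promoters (y axis, %) with each motif (x axis) among G1/S and replication genes (16 promoters, green), mitotic genes (17 promoters, purple) and all 32851 promoters of the reference table (grey). E2F-type motifs stand highest in the G1/S and replication genes (62.5%) and the CHR in the mitotic genes (82.4%).

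Nearly all of the cell cycle genes had lower mean levels in the Candida albicans libraries, and none passed the test over all genes. The log2 fold change, Candida albicans over PBS, was negative for 41 of 42 members, against 60.5% of all genes tested. Its median was -0.73 for the 19 G1/S and replication genes and -1.07 for the 23 mitotic genes, against -0.16 for all genes tested. In edgeR's quasi-likelihood test no member passed an adjusted p of 0.05 over all genes, where 0% of all genes were called, and the lowest adjusted p of a member was 0.079, for Mki67. At an unadjusted p under 0.05, 21 of 23 mitotic genes and 9 of 19 G1/S and replication genes were lower and none was higher, where 16.2% of all genes were lower and 13.4% higher. The Candida albicans libraries lay below every PBS library for 12 of the mitotic genes and 8 of the G1/S and replication genes, against 18.1% of all genes tested.

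The libraries of each group were uneven, and PBS replicate 1 lay close to the Candida albicans libraries. The mean log2 CPM of the 23 mitotic genes was 3.00, 3.62 and 3.47 in Candida albicans replicates 1 to 3, against 3.68, 4.76 and 4.70 in PBS replicates 1 to 3. That of the 19 G1/S and replication genes was 3.21, 3.53 and 3.21 in Candida albicans replicates 1 to 3 and 3.44, 4.36 and 4.09 in PBS replicates 1 to 3. The groups did not overlap for the mitotic mean, by a margin set by PBS replicate 1, and did overlap for the G1/S and replication mean. PBS replicate 2 was above every Candida albicans library for 41 of 42 members and PBS replicate 3 for 39, but PBS replicate 1 for 20. The same count per PBS library was not made over all genes, so these counts describe the libraries only. Without PBS replicate 1 the Candida albicans libraries lay below every PBS library for 39 of 42 members, against 31.2% of all genes. As PBS replicate 1 lay nearest the Candida albicans libraries for these genes, leaving it out widens the gap by construction. With any other library left out the count was 20 to 30 of 42, against 20.3 to 29.9% of all genes. Each of the 23 mitotic genes had its lowest value in Candida albicans replicate 1, whereas the lowest value of the G1/S and replication genes fell in Candida albicans replicate 3 for 10 genes, in Candida albicans replicate 1 for 6, in PBS replicate 1 for 2 and in PBS replicate 3 for 1.

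**Figure D2:**
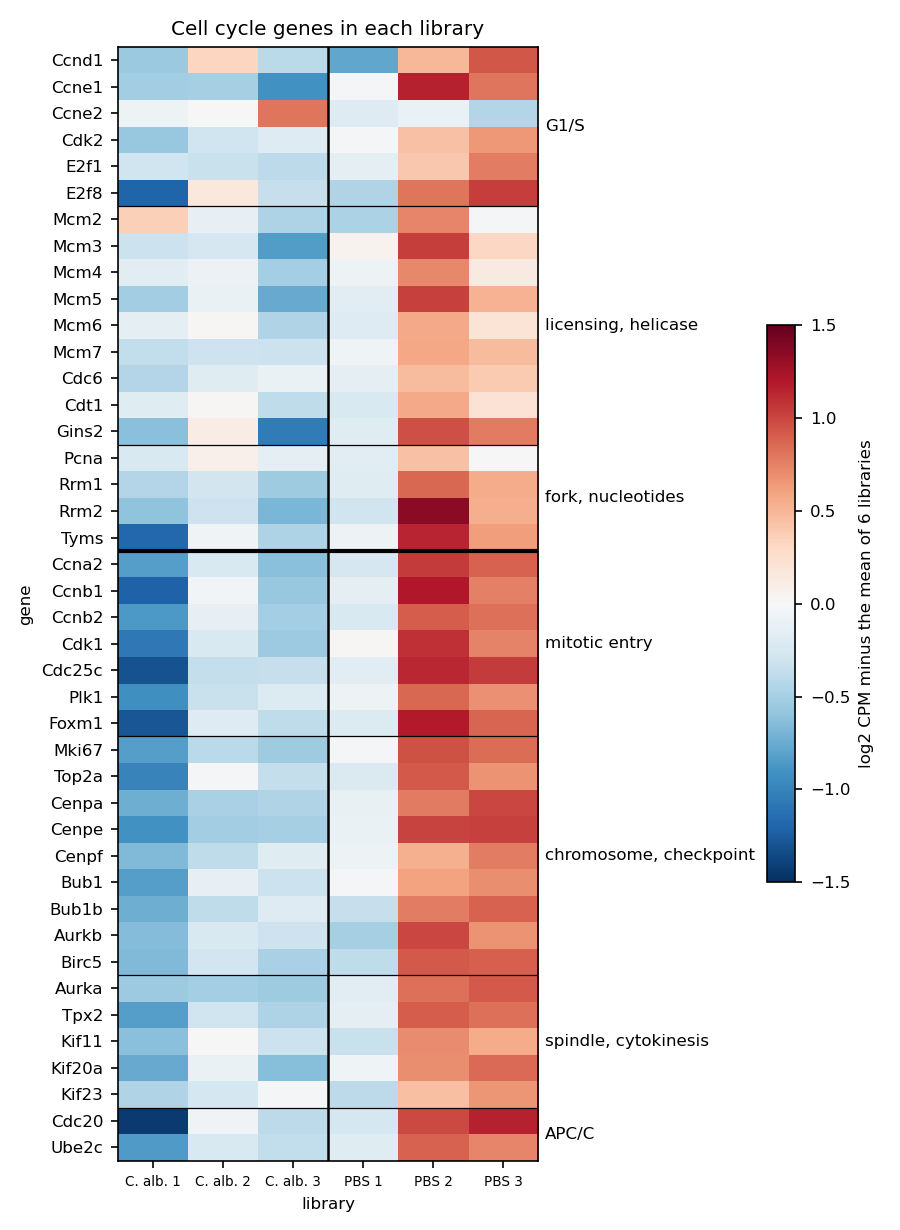
Log2 CPM of each of the 42 genes (rows, grouped by role, G1/S and replication above the thick line and mitotic below) minus its mean over the 6 libraries (columns, Candida albicans left, PBS right). PBS replicates 2 and 3 are red in nearly all rows, PBS replicate 1 is near white or pale blue, and Candida albicans replicate 1 is the deepest blue in every mitotic row.

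The level of mitotic genes relative to replication genes within a library is a ratio that no scaling of the library changes. The mean log2 CPM of the mitotic genes minus that of the G1/S and replication genes was -0.21, 0.09 and 0.26 in Candida albicans replicates 1 to 3 and 0.24, 0.40 and 0.61 in PBS replicates 1 to 3. Its mean was 0.04 ± 0.24 with Candida albicans and 0.42 ± 0.19 with PBS (SD, n = 3 each), and Candida albicans replicate 3 overlapped PBS replicate 1. In summed counts, mitotic genes stood at 0.988, 1.22 and 1.37 times the G1/S and replication genes in Candida albicans replicates 1 to 3 and at 1.45, 1.65 and 1.85 times in PBS replicates 1 to 3, without overlap. No test was made of these values, since the members were chosen by name with earlier results of these data known.

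**Figure D3:**
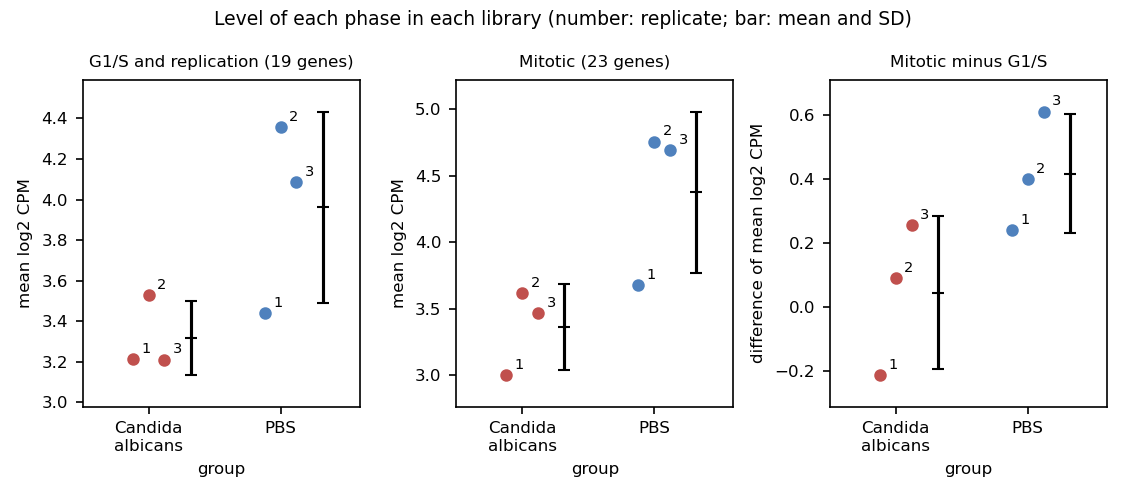
Mean log2 CPM (y axis) of the 19 G1/S and replication genes and of the 23 mitotic genes, and their difference, in each library (points, with the replicate number) by group (x axis), with bars for mean and SD. PBS replicates 2 and 3 stand apart from the other 4 libraries in the first 2 panels, and Candida albicans replicate 1 is lowest in the last 2.

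The calls turned on single libraries. With PBS replicate 1 left out, edgeR called 16 of 23 mitotic and 6 of 19 G1/S and replication genes lower at an adjusted p under 0.05, against 5.53% of all genes, and with PBS replicate 1 and Candida albicans replicate 1 both left out it called 18 and 5, against 6.02%. The count of members lower at an unadjusted p under 0.05, 30 with all libraries, was 18 without Candida albicans replicate 1 (18.7% of all genes), 17 without Candida albicans replicate 3 (9.27%), 13 without PBS replicate 2 (13.9%) and 14 without PBS replicate 3 (8.63%). Every leave-out kept the median of the mitotic genes between -1.26 and -0.83 and that of the G1/S and replication genes between -0.77 and -0.57. By the DESeq2 Wald test 11 mitotic and 6 G1/S and replication genes were called lower, against 7.15% of all genes.

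**Figure D4:**
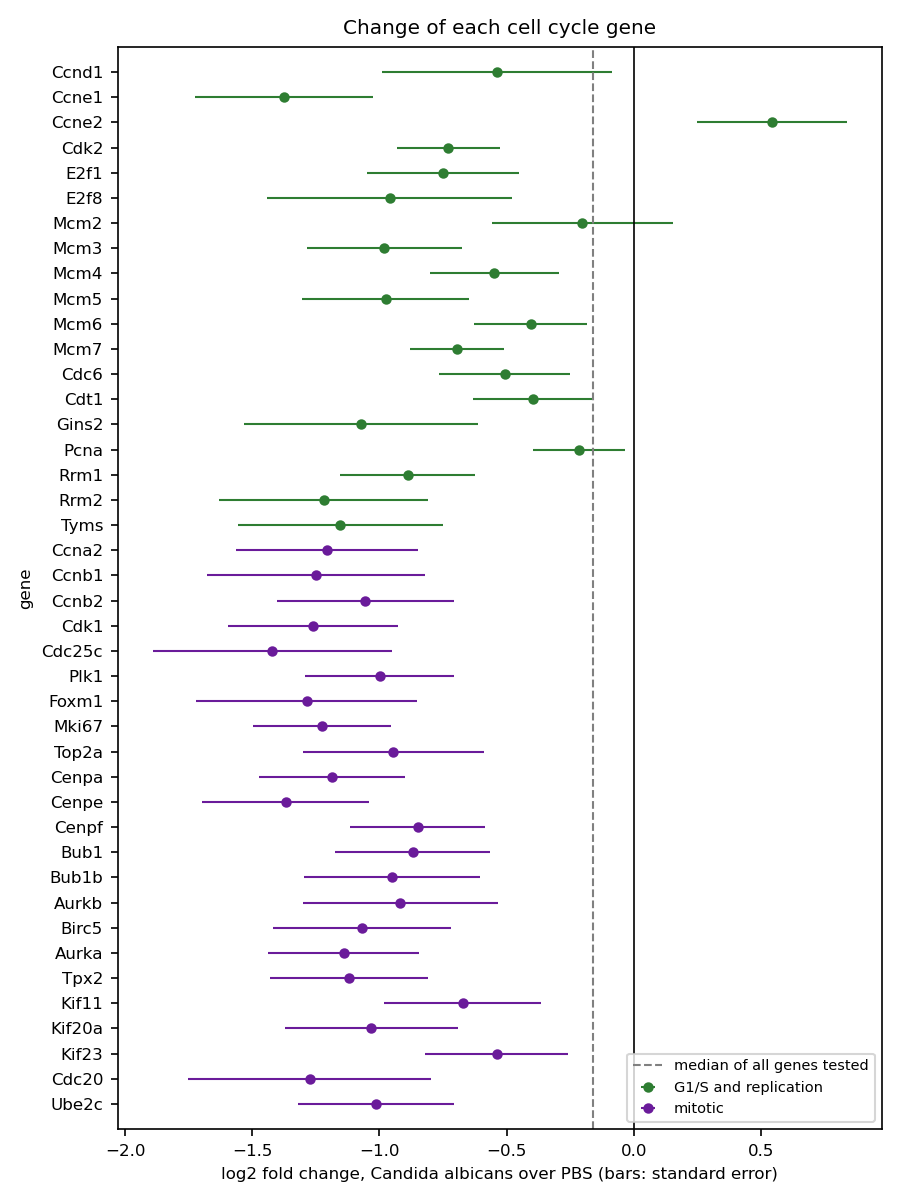
Log2 fold change (x axis, Candida albicans over PBS, edgeR) with its standard error (bars) for each of the 42 genes (y axis), G1/S and replication genes in green and mitotic genes in purple. The dashed line is the median of all 16313 tested genes (-0.16), Ccne2 is the single gene right of 0, and the mitotic genes lie between -1.42 and -0.54.

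Among the regulators of G1 and of entry into S phase, the cyclin E genes stood on opposite sides. Ccne1, the activating cyclin of CDK2 at S phase entry (ENSMUSG00000002068, chromosome 7, 38097984 to 38107534, mm10), had 3.36, 3.42 and 2.55 CPM in Candida albicans libraries and 4.76, 10.9 and 8.53 CPM in PBS libraries. The groups did not overlap, with a log2 fold change of -1.38 (SE 0.35, adjusted p 0.086, edgeR). Its paralog Ccne2 (ENSMUSG00000028212, chromosome 4, 11191351 to 11204779) had 6.52, 6.84 and 12.04 CPM in Candida albicans libraries and 5.97, 6.41 and 5.04 CPM in PBS libraries, a log2 fold change of 0.54 (SE 0.30, adjusted p 0.25). Ccne2 was thus the single member on the higher side, without overlap between the groups (17.6% of all genes were higher without overlap), and without Candida albicans replicate 3, its highest library, the value was 0.21. Cdk2, the kinase partner of both, had 15.7, 18.9 and 20.4 CPM in Candida albicans libraries and 23.01, 31.5 and 36.5 CPM in PBS libraries (log2 fold change -0.73, SE 0.20, adjusted p 0.094).

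Ccnd1, the cyclin that answers growth signals and Wnt, had 21.4, 39.6 and 23.8 CPM in Candida albicans libraries and 18.4, 44.5 and 60.2 CPM in PBS libraries. The groups overlapped throughout, and the log2 fold change of -0.54 (SE 0.45) was -0.09 without PBS replicate 3. For E2f1, an activator of S phase genes, it was -0.75 (SE 0.30), and for E2f8, an atypical repressor of such genes, -0.96 (SE 0.48).

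The MCM2 to MCM7 proteins form the ring helicase that CDC6 and CDT1 load at origins, and GINS2 belongs to the GINS complex that activates it. All 9 of these genes had negative log2 fold changes, with a median of -0.55, and 3 of them were lower at an unadjusted p under 0.05, against 16.2% of all genes. Mcm7 (ENSMUSG00000029730, chromosome 5, 138164583 to 138172422) had 19.1, 20.0 and 19.9 CPM in Candida albicans libraries and 23.8, 37.2 and 34.5 CPM in PBS libraries (log2 fold change -0.69, SE 0.19, adjusted p 0.089). Mcm3 had 11.0, 11.5 and 7.63 CPM in Candida albicans libraries and 14.2, 28.2 and 17.0 CPM in PBS libraries (-0.98, SE 0.30, adjusted p 0.11). In both genes the Candida albicans libraries lay below all PBS libraries.

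The subunits of that helicase did not all stand alike. Mcm2 had 22.7, 16.3 and 12.9 CPM in Candida albicans libraries and 12.7, 29.6 and 17.3 CPM in PBS libraries, so that Candida albicans replicate 1 exceeded 2 PBS libraries. Its log2 fold change was -0.20 (SE 0.36) and turned to 0.27 without PBS replicate 2. Mcm5 had -0.98 (SE 0.33), Mcm4 -0.55 (SE 0.25) and Mcm6 -0.41 (SE 0.22). Gins2 had -1.07 (SE 0.46), Cdc6 -0.51 (SE 0.26) and Cdt1 -0.40 (SE 0.24). Differences between the subunits were not tested.

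Rrm1 and Rrm2 encode the subunits of ribonucleotide reductase, and Tyms encodes thymidylate synthase. Rrm1 had 13.9, 15.6 and 13.0 CPM in Candida albicans libraries and 16.7, 34.3 and 27.9 CPM in PBS libraries (log2 fold change -0.89, SE 0.27, adjusted p 0.10). Rrm2 had 7.31, 8.93 and 6.87 CPM in Candida albicans libraries and 8.99, 28.6 and 16.3 CPM in PBS libraries (-1.22, SE 0.41, adjusted p 0.12). Both were lower in every Candida albicans library than in any PBS library, by a narrow margin over PBS replicate 1, and Rrm2 had -0.63 without PBS replicate 2. Tyms had -1.15 (SE 0.40) with overlapping groups.

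Pcna, the sliding clamp of the replication fork, which also serves DNA repair, had 47.4, 58.5 and 50.1 CPM in Candida albicans libraries and 49.8, 75.4 and 55.8 CPM in PBS libraries. These overlapped, and the log2 fold change was -0.21 (SE 0.18), with 0.04 without PBS replicate 2. Per kilobase of gene length Pcna was the most abundant member, at 21.7 CPM in Candida albicans libraries and 25.1 CPM in PBS libraries, while Mki67 stood at 4.96 and 11.6 CPM per kilobase in the same 2 groups.

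Genes of G2 and mitotic entry had the lowest median of the 7 role lists, at -1.25, and all 7 were lower at an unadjusted p under 0.05, against 16.2% of all genes. Differences between role lists were not tested. Cdk1, the kinase that starts mitosis (ENSMUSG00000019942, chromosome 10, 69335146 to 69352938), had 6.37, 11.5 and 9.20 CPM in Candida albicans libraries and 13.6, 28.7 and 22.5 CPM in PBS libraries. Its groups did not overlap, with a log2 fold change of -1.26 (SE 0.34, adjusted p 0.089). Ccnb1, its cyclin, had 4.20, 9.60 and 6.62 CPM in Candida albicans libraries and 8.96, 22.9 and 16.8 CPM in PBS libraries (-1.25, SE 0.43, adjusted p 0.12), where Candida albicans replicate 2 was above PBS replicate 1. Plk1, a kinase of mitotic entry and spindle assembly, had 18.9, 28.4 and 31.3 CPM in Candida albicans libraries and 34.0, 65.1 and 57.9 CPM in PBS libraries (-0.998, SE 0.29, adjusted p 0.10), without overlap.

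Of the others in that role, Cdc25c, the phosphatase that activates CDK1, had the most negative log2 fold change of all members, at -1.42 (SE 0.47). Foxm1, the transcription factor of the mitotic program, had -1.29 (SE 0.43), Ccna2, the cyclin of S phase and G2, -1.21 (SE 0.36), and Ccnb2, another mitotic cyclin, -1.06 (SE 0.35).

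The next role list holds genes of mitotic chromosomes, centromeres and the spindle checkpoint. Mki67, whose protein Ki-67 coats mitotic chromosomes and marks cycling cells in histology (ENSMUSG00000031004, chromosome 7, 135689784 to 135716361), had 42.1, 56.2 and 51.4 CPM in Candida albicans libraries and 72.8, 145 and 133 CPM in PBS libraries. It had the lowest p of all members, with a log2 fold change of -1.23 (SE 0.27, adjusted p 0.079, edgeR) and groups that did not overlap. Cenpe, a kinetochore motor, had 6.42, 8.41 and 8.57 CPM in Candida albicans libraries and 11.3, 24.5 and 24.7 CPM in PBS libraries (-1.37, SE 0.33, adjusted p 0.082), also without overlap.

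Top2a, the topoisomerase that untangles sister chromatids, had 23.9, 47.0 and 37.5 CPM in Candida albicans libraries and 41.3, 90.6 and 76.7 CPM in PBS libraries (-0.95, SE 0.36, adjusted p 0.15). Here Candida albicans replicate 2 was above PBS replicate 1. All 9 genes of this role were lower at an unadjusted p under 0.05, against 16.2% of all genes, from -0.85 for Cenpf, of the outer kinetochore, to -1.37 for Cenpe. Cenpa, the centromeric histone, had -1.19 (SE 0.29), and the chromosomal passenger genes Birc5 and Aurkb had -1.07 (SE 0.35) and -0.92 (SE 0.38). The checkpoint kinase genes Bub1b and Bub1 had -0.95 (SE 0.35) and -0.87 (SE 0.31).

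Spindle and cytokinesis genes held the 2 mitotic members that did not reach an unadjusted p of 0.05. These were Kif11, the motor that pushes spindle poles apart (-0.67, SE 0.31), and Kif23, a motor of the central spindle (-0.54, SE 0.28). Aurka, the kinase of spindle poles (ENSMUSG00000027496, chromosome 2, 172356190 to 172370535), had 7.406, 7.603 and 7.507 CPM in Candida albicans libraries and 9.67, 19.4 and 20.6 CPM in PBS libraries (-1.14, SE 0.30, adjusted p 0.087). Tpx2, which activates it, had 7.26, 10.5 and 9.29 CPM in Candida albicans libraries and 11.6, 24.3 and 22.8 CPM in PBS libraries (-1.12, SE 0.31, adjusted p 0.093). Neither gene overlapped between groups, and Aurka was nearly level across the Candida albicans libraries. Kif20a, a cytokinesis motor, had -1.03 (SE 0.34).

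Of the 2 members that act with the APC/C, neither passed over all genes. Ube2c, its ubiquitin-conjugating enzyme, had 16.5, 25.5 and 23.2 CPM in Candida albicans libraries and 26.5, 55.6 and 49.9 CPM in PBS libraries (-1.01, SE 0.31, adjusted p 0.10), without overlap but with a narrow gap to PBS replicate 1. Cdc20, its mitotic coactivator, had 5.97, 15.7 and 12.4 CPM in Candida albicans libraries and 13.6, 32.5 and 36.5 CPM in PBS libraries (-1.27, SE 0.48, adjusted p 0.15), with Candida albicans replicate 2 above PBS replicate 1.

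Other genes of replication and mitosis, from lists of non-members, lay at like values. For reference, 60.5% of all genes tested were negative. At an unadjusted p under 0.05 (edgeR) 16.2% of all genes were lower and 13.4% higher. Of 50 other mitosis genes all 50 had negative log2 fold changes (median -0.99) and 33 reached an unadjusted p under 0.05, among them Fam83d (-1.79, SE 0.26), a spindle protein gene, Cdca2 (-1.40, SE 0.29), Anln (-1.08, SE 0.23), whose product anillin shapes the cleavage furrow, and Troap (-1.42, SE 0.33). Of 40 other replication genes 39 were negative (median -0.77), 24 reached it on the lower side and 1 on the higher side. Dnmt1, the maintenance DNA methyltransferase, had -0.98 (SE 0.19), Tipin, of the fork protection complex, -1.24 (SE 0.26), the polymerase delta gene Pold1 -1.22 (SE 0.26) and the origin recognition gene Orc2 -0.89 (SE 0.22). All 13 genes of the DNA damage checkpoint and recombination list were negative (median -0.89), 8 of them at that p. These included Chek2 (-0.89, SE 0.21), a checkpoint kinase, Blm (-1.17, SE 0.33), a helicase, Exo1 (-1.39, SE 0.41), a nuclease, and Atr (-0.75, SE 0.22), the kinase that senses stalled forks. None passed over all genes.

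The regulators of cycle exit were divided. Among the 7 CDK inhibitors 4 had positive and 3 negative log2 fold changes, with a median of 0.03. At an unadjusted p under 0.05 (edgeR) all 3 negative ones were lower and 1 was higher, where 16.2% of all genes were lower and 13.4% higher. Cdkn1b (p27) had 59.3, 55.0 and 66.0 CPM in Candida albicans libraries and 53.2, 44.4 and 46.5 CPM in PBS libraries, without overlap (log2 fold change 0.32, SE 0.12, unadjusted p 0.036, adjusted p 0.15, edgeR). Cdkn1a (p21), the p53 target, had 0.33 (SE 0.27) with overlapping groups, Cdkn1c 0.32 (SE 0.26) and Cdkn2b 0.03 (SE 0.17). The inhibitors Cdkn2c (-0.73, SE 0.22) and Cdkn2d (-0.55, SE 0.21) were on the lower side, and Cdkn2a (-2.22, SE 0.86) rested on 3.68 CPM in PBS replicate 2 against 0.35, 0.29 and 0.38 CPM in the Candida albicans libraries and 0.53 and 0.60 CPM in PBS replicates 1 and 3. Of the retinoblastoma family, Rb1 had 95.9, 87.6 and 74.2 CPM in Candida albicans libraries and 67.9, 45.4 and 40.8 CPM in PBS libraries (0.74, SE 0.22, adjusted p 0.098), and Rbl2 had 0.62 (SE 0.19). In the same list E2f6, a repressive E2F, had -0.91 (SE 0.19) and Tfdp1, the dimer partner of E2F factors, -0.44 (SE 0.16).

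In the list of MYC and growth-related regulators 6 of 7 genes had positive log2 fold changes and 1 a negative one, with a median of 0.69. Of all genes tested 60.5% were negative. Myc, which drives growth and division, had 7.51, 14.8 and 9.67 CPM in Candida albicans libraries and 14.5, 21.8 and 24.1 CPM in PBS libraries (-0.91, SE 0.31), and its antagonists Mxd1 (0.73, SE 0.32) and Mxi1 (0.88, SE 0.38) and the shared partner Max (0.77, SE 0.21) were on the other side. Of these only Myc and Max reached an unadjusted p under 0.05. Mybl2, the MYB factor of the mitotic MuvB complex, had 4.20, 6.27 and 5.73 CPM in Candida albicans libraries and 7.75, 16.8 and 14.5 CPM in PBS libraries (-1.27, SE 0.33, adjusted p 0.087), while the core MuvB genes Lin9 (-0.60, SE 0.26) and Lin54 (0.34, SE 0.15) and the related factor Mybl1 (-0.99, SE 0.58) did not reach an unadjusted p of 0.05.

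Among other cyclins and kinases Cdc25b had -0.73 (SE 0.18), Ccnf, a cyclin of G2, -1.20 (SE 0.31), Ccnd3, a D-type cyclin, -0.70 (SE 0.18) and Pkmyt1, an inhibitory kinase of CDK1, -1.05 (SE 0.29). In that list 5 of 9 were lower at an unadjusted p under 0.05, against 16.2% of all genes. Of the 14 APC/C genes 6 were lower at that p, against 16.2% of all genes. They were led by Anapc5 (-0.67, SE 0.11) and Cdc23 (-0.55, SE 0.14), subunits of the complex, with Ube2s (-0.78, SE 0.25), a ubiquitin-conjugating enzyme, and Fbxo5 (-1.06, SE 0.35), an inhibitor of the complex. Of 9 genes of chromatid cohesion, Nipbl (0.37, SE 0.10) and Wapl (0.43, SE 0.13) were higher at an unadjusted p under 0.05. Cdca5 (-0.98, SE 0.36) and Smc3 (-0.36, SE 0.14) were lower. Of 10 tested p53 targets, Sesn2 (0.69, SE 0.16) and Mdm2 (0.32, SE 0.11) were higher and Plk2 (-1.21, SE 0.25) and Bax (-0.46, SE 0.15) lower at that p. The lower share was 22.2% of the cohesion genes and 20% of the p53 targets, near the 16.2% of all genes. Of all genes 13.4% were higher. These lists thus show little beyond the share of all genes.

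Markers of other cells differed alongside the cell cycle genes, and in bulk RNA fewer cycling cells and less RNA per cycling cell cannot be told apart. Mature enterocyte markers summed to 81447, 73928 and 56461 CPM in Candida albicans replicates 1 to 3 and to 38193, 21740 and 10905 CPM in PBS replicates 1 to 3. All 15 had positive log2 fold changes, where 60.5% of all genes were negative. At an unadjusted p under 0.05 (edgeR) 13 of them were higher, against 13.4% of all genes. The groups did not overlap in the sum. PBS replicate 1, whose cell cycle genes lay near those of the Candida albicans libraries, was also the PBS library with the highest enterocyte sum. Crypt stem cell markers summed to 272, 476 and 364 CPM in Candida albicans replicates 1 to 3. In PBS replicates 1 to 3 they summed to 437, 495 and 553 CPM, so the groups overlapped. Of the 14 markers 12 were on the negative side, against 60.5% of all genes. At an unadjusted p under 0.05 (edgeR) 5 were lower, against 16.2% of all genes. These were Smoc2, Lrig1, Sox9, Cd44 and Rgmb. The rest did not reach that p, among them Lgr5 (-0.60, SE 0.41), Olfm4 (-0.13, SE 0.50) and Ascl2 (0.08, SE 0.41).

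Per unit of the crypt stem cell sum, mitotic genes stood at 0.887, 0.764 and 0.906 in Candida albicans libraries and at 0.883, 1.65 and 1.38 in PBS libraries, so PBS replicate 1 fell within the Candida albicans range. G1/S and replication genes stood at 0.898, 0.625 and 0.662 in Candida albicans libraries and at 0.608, 0.996 and 0.747 in PBS libraries by the same measure, with PBS replicate 1 lowest of all 6. The genes of the stem cell sum did not move together among PBS replicates 1 to 3. Smoc2 (49.8, 16.2 and 43.4 CPM) and Rgmb (71.0, 35.3 and 61.0 CPM) were lowest in PBS replicate 2, like the smooth muscle markers. Ephb2 (18.7, 69.7 and 42.3 CPM) was highest there. A ratio to this sum is thus no measure of division per stem cell. Per 1000 CPM of pan-epithelial markers, mitotic genes stood at 11.4, 15.9 and 15.8 CPM in Candida albicans libraries and at 24.5, 36.1 and 50.8 CPM in PBS libraries. By that epithelial measure the groups did not overlap. The pan-epithelial sum itself was lower in PBS replicates 1 and 3, at 15743 and 15070 CPM, than in any Candida albicans library (20827 CPM or more), which widens this gap.

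Muscle and B cell markers varied within both groups. When the smooth muscle score entered the fit, the median log2 fold change was -1.54 for the mitotic genes and -0.93 for the G1/S and replication genes. The median of all genes was -0.087, and 0 members were called in that fit. The score, a mean log2 CPM, itself averaged 2.75 with Candida albicans and 6.82 with PBS. With 6 libraries, muscle content and group cannot be fully told apart. B cells of gut lymphoid tissue can divide rapidly, so their markers are given too. All 8 B cell markers summed to 254, 2.80 and 3.14 CPM in Candida albicans replicates 1 to 3 and to 254, 160 and 83.8 CPM in PBS replicates 1 to 3, and 0 of 8 reached an unadjusted p under 0.05. Candida albicans replicate 1 and PBS replicate 1 had the highest B cell sums of their groups and the lowest mitotic means. These libraries also had the highest sums of their groups for smooth muscle (1792 and 7055 CPM), fibroblast (175 and 715 CPM) and mature enterocyte markers (81447 and 38193 CPM). The pattern is thus not particular to B cell markers. Tuft cell markers summed to 106, 91.2 and 164 CPM in Candida albicans replicates 1 to 3 and to 423, 543 and 403 CPM in PBS replicates 1 to 3, and mitochondrially encoded genes took 3.19 to 4.63% of counts in Candida albicans libraries and 5.89 to 8.92% in PBS libraries, both without overlap. The part of enterocyte, stem cell, tuft cell, B cell, fibroblast and mitochondrial content in the cell cycle values was not tested.

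**Figure D5:**
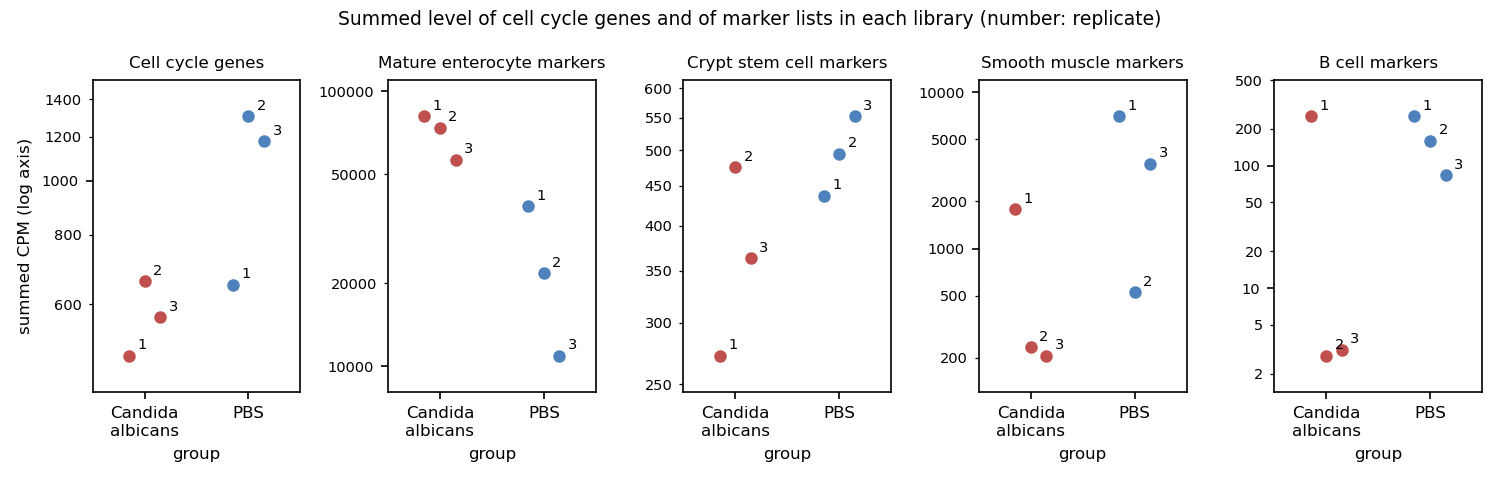
Summed CPM (y axis, log scale) of the 42 cell cycle genes and of the mature enterocyte, crypt stem cell, smooth muscle and B cell marker lists in each library (points, with the replicate number) by group (x axis). Enterocyte markers run opposite to the cell cycle genes across the groups, and B cell markers are near 3 CPM in 2 of the 3 Candida albicans libraries.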

How the data were processed

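PolyA RNA of intestinal epithelium was sequenced in 3 Candida albicans and 3 PBS libraries. The authors deposited a table of unnormalized read counts, 1 whole number per gene and library. The submitters' processing notes name HISAT2 2.2.1 with mm10, featureCounts 2.0.1, and Trim Galore 0.6.7. How these were set, strand included, is not given in the sources used here, so reads of overlapping or antisense genes may be shared. All pairs of libraries differed beyond counting error (chi-square over its degrees of freedom, 33.2 or more).

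The tests used edgeR 4.0.16 under R 4.3.3: filterByExpr (minimum count 10, minimum total 15), TMM scaling, glmQLFit with robust=TRUE and glmQLFTest, two-sided, without covariate, Benjamini-Hochberg over 16313 genes, threshold 0.05. Standard errors come from the F statistic. Mean log2 CPM used a prior count of 2. The procedure was tried on counts simulated without the uneven cell type markers seen among these libraries. That trial does not bear on how reliable the calls are here. A count of 0 allows up to 3 counts, which correspond to 0.113 to 0.148 CPM and cover counting error only. Alternatives, with limma 3.58.1 and DESeq2 1.42.0 among them, are given in the closing section.

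The members, lists, tests and the rule for naming genes were chosen with earlier results of these data known. Values were given library by library for 7 fixed genes, the 2 members of lowest p in each of 7 role lists and any member whose sign was opposite to its phase. Of each list of other cell cycle genes up to 4 of lowest p were named, besides all CDK inhibitors.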

Additional observations from a re-analysis of the deposited data

How the results depend on the processing

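In the edgeR fit of the report no gene and no member passed an adjusted p of 0.05. The genes called under other settings were 3 with upper quartile scaling, 188 with library totals only, 130 with pan-epithelial scaling, 2911 by the DESeq2 Wald test, 2569 by limma-voom with quality weights, 552 with no count filter, 43 at a mean of 5 CPM or more, 42 with the smooth muscle covariate, 2110 without replicate 1 of both groups, and 0 to 2620 with 1 library left out, the highest without PBS replicate 1. The members called were 1 with pan-epithelial scaling (0.766% of all genes lower), 17 by DESeq2, 15 by limma-voom with quality weights (8.2%), 1 with no count filter (0.885%), 23 without replicate 1 of both groups and 0 to 22 with 1 library left out. Members at an unadjusted p under 0.05 numbered 13 to 34 with 1 library left out. The cause was not tested. With 1 library left out, Mcm2 ranged from -0.44 to 0.27 and Pcna from -0.30 to 0.044 (log2), both turning positive without PBS replicate 2, and no other member changed sign in any of the 21 alternatives that tested it. Both phase medians stayed negative in all 21, between -1.05 and -0.57 for G1/S and replication genes and between -1.54 and -0.83 for mitotic genes. Scaling moved the median of all genes to -0.45 with library totals and -0.48 with pan-epithelial scaling.

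The labels do not say whether replicate numbers pair the libraries. Same-number correlations of deviations from the group mean were 0.576, 0.357 and 0.0458 for replicates 1 to 3. Candida albicans replicates 1 and 2 correlated best with the PBS library of the same number, and Candida albicans replicate 3 with PBS replicate 2 (0.408). With 3 libraries per group these values cannot settle whether the libraries were paired. The replicate block gave 2080 genes and 21 members called (6.44% of all genes lower). Counting error weighs most on the rarest members, the lowest of which had 22 counts in a library.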
